A study of Mus musculus with 6 samples.

Results

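The genes described here are those of the mitogen-activated protein (MAP) kinase cascades and of the dual-specificity phosphatases. They are the rows of an mRNA-seq table whose symbol begins with Mapk, Map2k, Map3k (except Map3k7), Map4k, or Dusp. They number 46 of the 8191 genes in the table. The cells were myeloid-derived suppressor cells (MDSCs), immature myeloid cells that restrain T cells, taken from the spleens of old BALB/c mice aged 18 to 24 months. There were 3 genotypes with 2 samples each: WT mice, Tnfr1-/- mice, and Tnfr2-/- mice, the last 2 lacking TNF receptor 1 or TNF receptor 2. Each sample pooled the MDSCs of 5 mice, and the cells received no treatment. The knockout lines were made in the study's laboratory on a BALB/c background, whereas BALB/c mice were purchased. The study asked whether TNFR2 acts on MDSCs through the JNK kinase, and these libraries measure the mRNA of that kinase and its neighbours, not the phosphorylated protein.

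MAP kinase cascades run in 3 tiers. A MAP3K, itself often switched on by a MAP4K or a small GTPase, phosphorylates a MAP2K, which phosphorylates a MAP kinase on a threonine and a tyrosine. Growth factors and cytokines act mainly through the ERK arm, while TNF, microbial products, and cell stress act mainly through the JNK and p38 arms, which feed AP-1 and other transcription factors in myeloid cells. Dual-specificity phosphatases remove both phosphates: the MAP kinase phosphatases bind their MAP kinase through a docking domain, and the smaller atypical enzymes lack it and often have other substrates. The 46 genes hold 7 MAP kinases, 5 MAP2Ks, 10 MAP3Ks, 2 MAP4Ks, 8 scaffolds or MAP kinase-activated kinases, 4 MAP kinase phosphatases, and 10 atypical phosphatases. By arm, 7 belong to JNK, 7 to p38, 8 to ERK, and 1 to JNK and p38 together, and the 12 MAP3Ks and MAP4Ks were kept apart as upstream kinases, which leaves 11 others. Other genes with these symbols were not analysed here.

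2 properties of the samples bear on every value below. First, the table holds only genes with a p-value under 0.05 in a one-way analysis of variance over the 3 genotypes, so each of the 46 genes had been picked for a difference. The deposited values are FPKM, fragment counts scaled to transcript length and library size, and they were on a higher scale in WT: the 8191 genes summed to 344714 and 346870 FPKM in WT and to between 133604 and 155248 FPKM in the knockouts. The WT values were also written with up to 10 significant digits and the knockout values with up to 7, and whether both were processed in the same way is not given in the sources used here. In any difference from WT, this cannot be told apart from genotype. The median gene differed from WT by −0.74 (Tnfr2-/-) and −0.83 (Tnfr1-/-) on the log2(FPKM + 1) scale. Median-ratio scaling, which divides each sample by its median ratio to the mean sample, brought these medians to −0.03 in both. Therefore every test was run as deposited and with this scaling, and differences are given as deposited unless stated. A gene is said to have risen or fallen only where it passed the test under both. Against WT, these are not 2 separate hurdles, because scaling raised the knockouts. All 1115 (Tnfr2-/-) and 1151 (Tnfr1-/-) listed genes called higher as deposited passed again with scaling. Likewise, all 1722 and 1820 genes called lower with scaling were lower as deposited. A rise thus rests on the deposited test and a fall on the scaled test. Second, the markers that were listed went against the cell type of the label in the libraries labelled WT. Markers that did not differ between genotypes could not enter the table, so they cannot be weighed here. Of 17 myeloid and granulocyte-monocyte markers, 4 were listed (Ptprc, Ly6c1, Csf3r, and Retnlg), and their summed FPKM was 111 and 115 in WT, 2984 and 2787 in Tnfr1-/-, and 2462 and 1749.7 in Tnfr2-/-. Ptprc, which encodes CD45 and is not particular to these cells, made up 98.2 and 105 of the WT sums. Retnlg had 2.30 and 2.13 in WT, 2364 and 1961 in Tnfr1-/-, and 1649 and 1049 in Tnfr2-/-. Ly6c1, part of the Gr-1 antigen, stood at 0.159 and 0.0638 in WT, 95.8 and 99.6 in Tnfr1-/-, and 121 and 178 in Tnfr2-/-. All 14 macrophage and dendritic cell markers were listed, and their sum was 7824 and 8278 in WT, 1278 and 1333 in Tnfr1-/-, and 1192 and 1761 in Tnfr2-/-. The part of cell composition in the differences from WT was not tested, and in pooled cells, fewer cells of a type cannot be told apart from less RNA per cell. The targeted gene Tnfrsf1b, which encodes TNFR2, had 112 and 115 in WT, 47.8 and 69.6 in Tnfr1-/-, and 11.3 and 14.3 in Tnfr2-/-, and Tnfrsf1a was not analysed here.

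The genes spanned a wide range of levels. In WT, the highest mean FPKM values were those of Map2k3 (57.5 ± 0.88, SD, n = 2), Map2k2 (51.0 ± 0.26), Map2k1 (44.5 ± 0.11), Mapkapk3 (43.4 ± 1.7), and Mapk14 (37.1 ± 0.44). In Tnfr2-/-, they were those of Dusp6 (89.6 ± 2.1), Mapk14 (77.9 ± 12), Map4k2 (50.2 ± 8.9), and Map3k3 (48.0 ± 7.5). Thus the order of the family differed: the MAP2Ks led in WT, and p38 alpha, MEKK3, Map4k2, and the ERK phosphatase MKP-3 led in the knockouts. Mapk10, Map3k13, and Dusp15 stayed under 0.1 FPKM in every sample. The summed FPKM of all 46 genes was similar in the 6 samples, between 552 and 631, although all listed genes together were higher in WT. The 46 genes therefore made up 0.159% to 0.164% of the summed FPKM in WT and 0.378% to 0.429% in the knockouts.

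**Figure D1:**
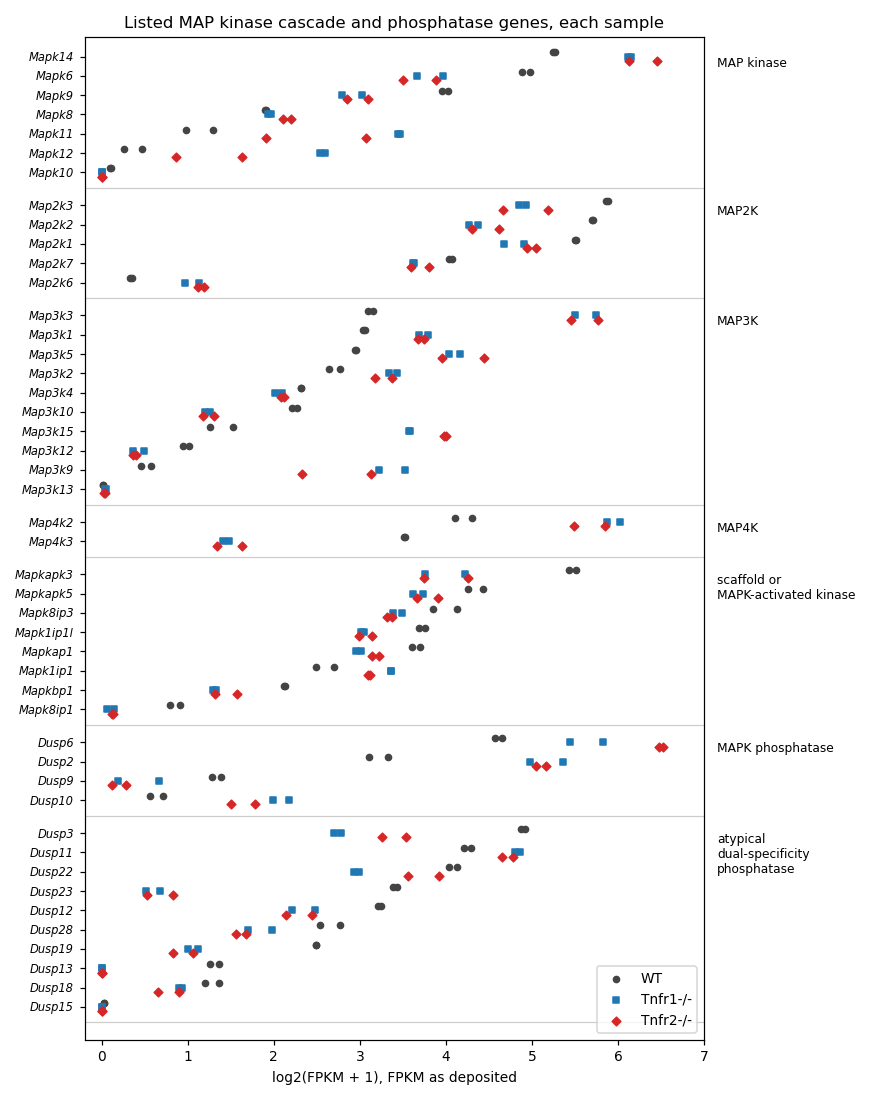
Level of each of the 46 genes in each of the 6 samples as log2(FPKM + 1), grouped by class, with 2 points per genotype (WT circles, Tnfr1-/- squares, Tnfr2-/- diamonds). The MAP2Ks other than Map2k6 lie to the right in WT, and Map3k3, Map3k15, Map4k2, Dusp2, and Dusp6 lie to the right in both knockouts.

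For Tnfr2-/- against WT, limma was fitted on log2(FPKM + 1) of all listed genes, and a gene was called at a Benjamini-Hochberg adjusted p under 0.05 and a fold change over 1.5. As deposited, 32 of the 46 genes were called (69.6%), against a background of 70.7% of all listed genes. The directions were 13 higher (28.3%, background 13.6%) and 19 lower (41.3%, background 57.1%). Under median-ratio scaling there were 17 higher (background 21.9%) and 5 lower (background 21%). Under both scalings 13 rose (background 13.6%) and 5 fell (background 21%). For Tnfr1-/- against WT, 37 genes were called as deposited (80.4%, background 74.8%), 16 higher (background 14.1%) and 21 lower (background 60.7%), with 19 higher (background 23.3%) and 5 lower (background 22.2%) under median-ratio scaling. Under both scalings 16 rose (background 14.1%) and 5 fell (background 22.2%) in Tnfr1-/-. The share of genes called in any direction thus lay near the background, and the share called higher lay above it. The median log2 difference of the 46 genes was −0.41 in Tnfr2-/- and −0.49 in Tnfr1-/- as deposited, and 0.32 and 0.35 with median-ratio scaling. Compared with the median gene, 32 of the 46 lay above it in each knockout as deposited, and 30 and 32 did with scaling.

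As deposited, the 2 samples of each knockout lay on one side of the WT samples for all 46 genes, which was also true of 98.3% (Tnfr2-/-) and 99.0% (Tnfr1-/-) of all listed genes. The 2 comparisons share the WT samples, so their likeness is not independent. 17 genes passed under both scalings in both comparisons, 13 higher and 4 lower, with the same direction in each. In contrast, the sign itself turned with median-ratio scaling for 10 genes in Tnfr2-/- and for 11 in Tnfr1-/-, among them Map2k1, Map2k3, Map2k7, Map3k4, Mapk8ip3, Mapkap1, Mapkapk5, and Mapk1ip1l in both. The shares of all listed genes that passed in both comparisons or turned sign were not counted. These numbers are therefore not set apart from a background.

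**Figure D2:**
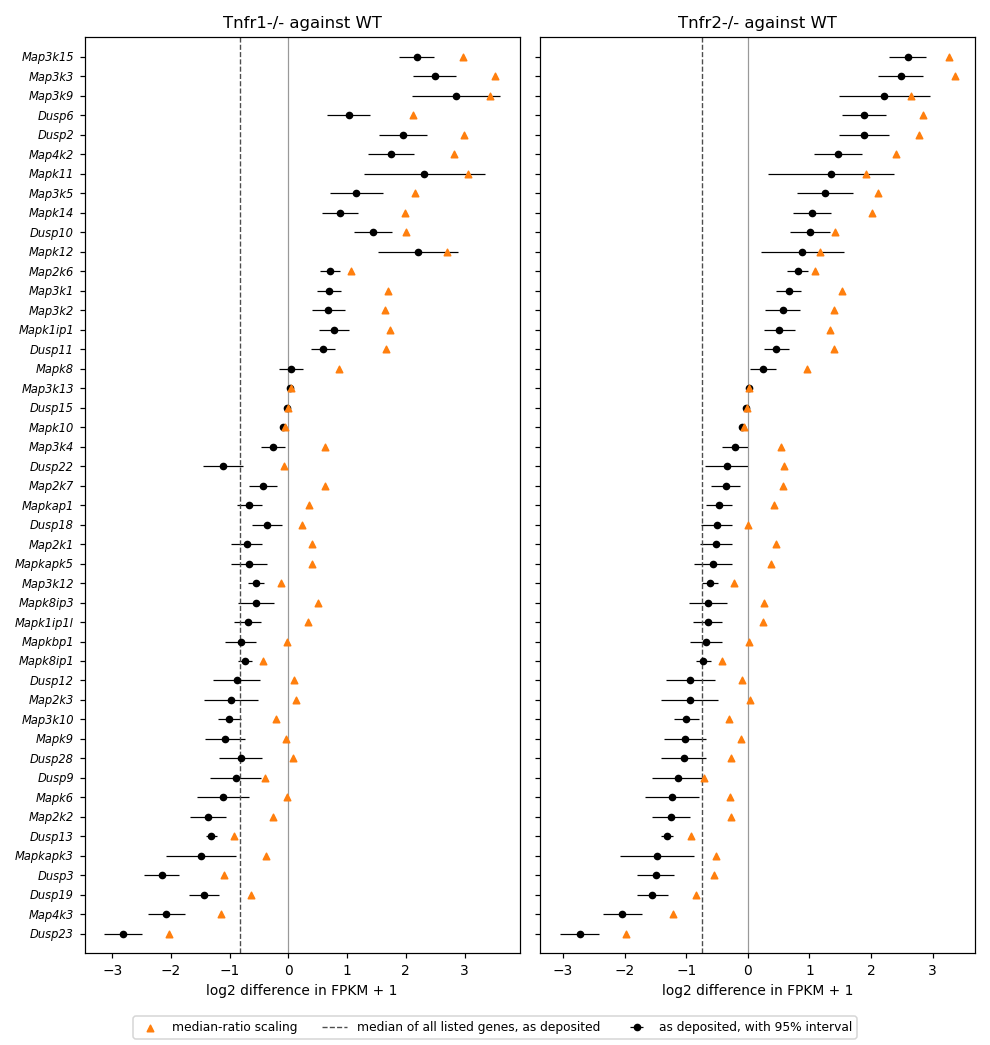
Log2 difference in FPKM + 1 of each gene from WT in Tnfr1-/- (left) and Tnfr2-/- (right), as deposited with its 95% interval from limma (circles) and with median-ratio scaling (triangles); the dashed line is the median of all listed genes as deposited, −0.83 and −0.74. Genes from Mapk1ip1 and Dusp11 upwards have both symbols right of 0, whereas many genes below Dusp22 have the circle left of 0 and the triangle near it or right of it.

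4 of the 7 genes of the p38 arm rose in each knockout under both scalings, namely Map2k6, Mapk11, Mapk12, and Mapk14, and none fell. Of all listed genes, 13.6% rose and 21% fell in Tnfr2-/-, and 14.1% and 22.2% did in Tnfr1-/-. Mapk14, which encodes p38 alpha, the main p38 of myeloid cells, had an FPKM of 37.4 and 36.8 in WT, 68.2 and 69.9 in Tnfr1-/-, and 86.7 and 69.1 in Tnfr2-/-. All 4 knockout samples lay above both WT samples. Its log2 difference was 1.04 ± 0.12 SE, limma adjusted p = 0.000854 in Tnfr2-/- and 0.88 ± 0.12 SE, limma adjusted p = 0.00135 in Tnfr1-/-, and 2.01 and 1.99 with scaling. Relative to the median gene, the deposited differences were 1.78 and 1.71. Map2k6, which encodes MKK6, an activator of p38, had 0.279 and 0.255 in WT, 1.18 and 0.949 in Tnfr1-/-, and 1.17 and 1.28 in Tnfr2-/-. The 4 knockout samples were again above WT and close to each other, at a log2 difference of 0.81 ± 0.07 SE, limma adjusted p = 0.000271 in Tnfr2-/- and 0.70 ± 0.07 SE, limma adjusted p = 0.000368 in Tnfr1-/-. The other p38 activator, Map2k3 (MKK3), had 56.9 and 58.1 in WT, 27.9 and 29.5 in Tnfr1-/-, and 35.4 and 24.4 in Tnfr2-/-, a log2 difference of −0.94 ± 0.18 SE and −0.98 ± 0.18 SE as deposited. With scaling this became 0.03 and 0.14, so Map2k3 kept no direction. Accordingly the ratio of Map2k3 to Map2k6, which 1 factor per sample does not change, was 204 and 228 in WT and between 19.1 and 31.1 in the knockouts.

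The minor p38 kinases rose from low levels and differed more between samples. Mapk11, which encodes p38 beta, had 0.970 and 1.46 in WT, 10.1 and 9.84 in Tnfr1-/-, and 2.74 and 7.43 in Tnfr2-/-, and Mapk12, which encodes p38 gamma, had 0.383 and 0.192 in WT, 5.03 and 4.82 in Tnfr1-/-, and 0.813 and 2.09 in Tnfr2-/-. Both genes were high in the 2 Tnfr1-/- samples and lower and uneven in the 2 Tnfr2-/- samples, of which sample 1 was the lower for both. The log2 difference of Mapk11 was 2.31 ± 0.40 SE, limma adjusted p = 0.00301 in Tnfr1-/- and 1.35 ± 0.40 SE, limma adjusted p = 0.0217 in Tnfr2-/-. That of Mapk12 was 2.21 ± 0.26 SE, limma adjusted p = 0.000831 in Tnfr1-/- and 0.88 ± 0.26 SE, limma adjusted p = 0.0224 in Tnfr2-/-. Both Tnfr2-/- calls were lost without either WT sample (adjusted p between 0.0691 and 0.120), and that of Mapk12 also without Tnfr2-/- sample 2, where the log2 difference of 0.50 was under the fold change required. As a share of the FPKM of these 3 p38 genes, Mapk14 made up 96.5% and 95.7% in WT, 81.9% and 82.7% in Tnfr1-/-, and 96.1% and 87.9% in Tnfr2-/-. Mapk11 and Mapk12 are neighbours on the minus strand of mouse chromosome 15 (GRCm38, Mapk11 at chr15:89142486-89149628 and Mapk12 at chr15:89130584-89140703, GENCODE M21), with 1782 bases between them, so the start of Mapk12 lies in the gap behind the end of Mapk11. Because they moved together, the 250 bases before each start are shown with those before a start of Map2k6 (RefSeq, GRCm38.p6, 5′ to 3′ on the gene's strand), where capitals mark a match to the AP-1 motif.
Mapk11, chr15:89149607-89149856, minus strand: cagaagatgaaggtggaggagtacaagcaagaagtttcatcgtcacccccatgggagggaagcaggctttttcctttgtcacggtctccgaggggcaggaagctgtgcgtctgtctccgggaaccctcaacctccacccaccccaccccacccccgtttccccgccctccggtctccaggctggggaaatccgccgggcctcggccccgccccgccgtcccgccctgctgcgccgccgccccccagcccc
Mapk12, chr15:89140704-89140953, minus strand: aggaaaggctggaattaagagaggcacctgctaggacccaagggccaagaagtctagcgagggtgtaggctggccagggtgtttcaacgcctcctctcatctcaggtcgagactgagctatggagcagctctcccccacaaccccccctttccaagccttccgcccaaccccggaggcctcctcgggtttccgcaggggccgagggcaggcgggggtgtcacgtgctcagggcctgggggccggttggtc
Map2k6, chr11:110398852-110399101, plus strand: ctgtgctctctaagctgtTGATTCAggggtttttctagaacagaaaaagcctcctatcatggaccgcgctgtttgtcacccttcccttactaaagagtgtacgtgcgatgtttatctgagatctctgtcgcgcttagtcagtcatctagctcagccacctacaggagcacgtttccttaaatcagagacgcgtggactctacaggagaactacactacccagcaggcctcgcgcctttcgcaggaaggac
3 motifs were searched on both strands, AP-1 (TGANTCA), the cyclic AMP response element (TGACGTCA), and an ETS site (CCGGAAGT). The windows of Mapk11 and Mapk12 held no match, and that of Map2k6 held 1 AP-1 match at position −232 from the start. Promoters of 39 of the 46 genes were found. AP-1 matched upstream of 4 of them (10.3%, namely Dusp13, Map2k6, Map2k7, and Map3k10), against 7.82% of all 27025 genes and 5.72% of the listed ones. The cyclic AMP element matched in 1 (Mapk10; 2.56%, against 1.77% of all and 3.03% of listed genes) and the ETS site in 2 (Mapk8ip3 and Mapkap1; 5.13%, against 3.23% of all and 6.58% of listed genes). No promoter was read for Dusp9, Dusp15, Dusp19, Map3k2, Map3k15, Mapk1ip1, and Mapk8ip1. A match is a run of letters, not evidence of binding.

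**Figure D3:**
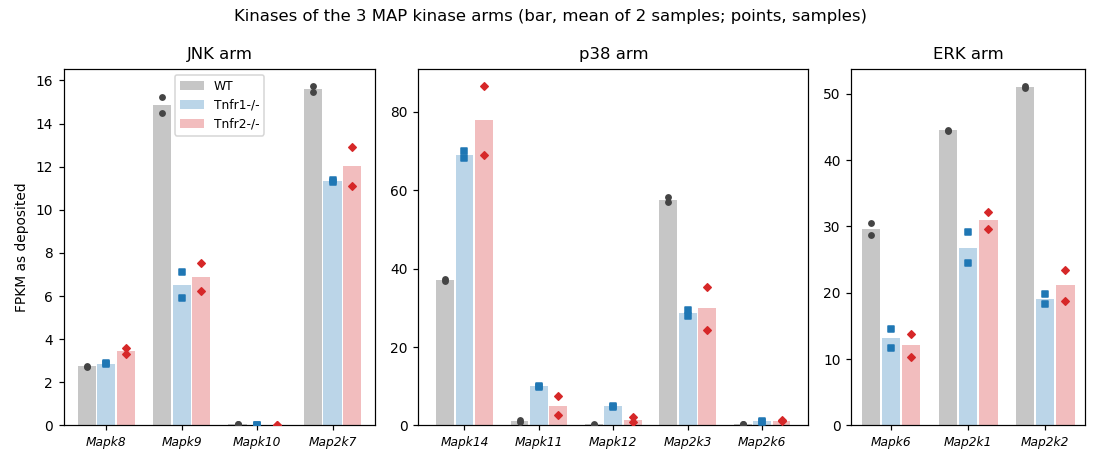
FPKM as deposited of the MAP kinases and MAP2Ks of the JNK, p38, and ERK arms; bars are the mean of 2 samples and points are the samples, and each panel has its own axis from 0. Mapk14 stands at 36.8 and 37.4 FPKM in WT and at 68.2 to 86.7 FPKM in the knockouts, whereas Mapk9, Mapk6, Map2k2, and Map2k3 stand higher in WT.

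In the JNK arm, no gene passed the test under both scalings in either knockout. The background was 13.6% higher and 21% lower in Tnfr2-/-, and 14.1% and 22.2% in Tnfr1-/-. Mapk8, which encodes JNK1, had 2.73 and 2.76 in WT, 2.91 and 2.83 in Tnfr1-/-, and 3.30 and 3.60 in Tnfr2-/-. The samples of Tnfr2-/- lay above the others, but the log2 difference from WT was only 0.25 ± 0.08 SE, limma adjusted p = 0.0285, under the fold change required, and that of Tnfr1-/- was 0.05 ± 0.08 SE, limma adjusted p = 0.569. With scaling, it was 0.96 (adjusted p = 0.000325) and 0.86 (adjusted p = 0.000384), so that JNK1 mRNA was called higher in both knockouts only relative to the median gene. Mapk9, which encodes JNK2, had 14.5 and 15.2 in WT, 5.92 and 7.12 in Tnfr1-/-, and 6.21 and 7.54 in Tnfr2-/-. Its log2 difference was −1.02 ± 0.13 SE, limma adjusted p = 0.00121 and −1.08 ± 0.13 SE, limma adjusted p = 0.000876 as deposited, and −0.11 and −0.05 with scaling, where the call was lost. The ratio of Mapk9 to Mapk8 within a sample does not depend on a factor per sample, and it was 5.32 and 5.53 in WT, 2.03 and 2.51 in Tnfr1-/-, and 1.88 and 2.09 in Tnfr2-/-. Thus JNK2 mRNA exceeded JNK1 mRNA per length in every sample, and less so in all 4 knockout samples. Mapk10, which encodes the neuronal kinase JNK3, had 0.0691 and 0.0761 in WT, 0 and 0 in Tnfr1-/-, and 0.00496 and 0 in Tnfr2-/-, near 0 throughout.

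Map2k7, which encodes MKK7, the JNK-specific MAP2K, had 15.5 and 15.8 in WT, 11.4 and 11.3 in Tnfr1-/-, and 11.1 and 12.9 in Tnfr2-/-. Its log2 difference of −0.36 ± 0.09 SE in Tnfr2-/- and −0.43 ± 0.09 SE in Tnfr1-/- turned to 0.56 and 0.63 with scaling, so it kept no direction. In addition, 35.2% of its exon bases overlap another annotated gene, which makes its value uncertain because strand-specific counting is not given in the sources used here. The JNK scaffolds were all lower as deposited. Mapk8ip1 (JIP1) had 0.872 and 0.733 in WT, 0.102 and 0.0453 in Tnfr1-/-, and 0.0968 and 0.0832 in Tnfr2-/-, at a log2 difference of −0.72 ± 0.05 SE, limma adjusted p = 0.000139 and −0.75 ± 0.05 SE, limma adjusted p = 0.000114. With scaling these were −0.42 and −0.44, still lower but under the fold change required. All values of Mapk8ip1 were under 1 FPKM, where the 1 FPKM added before the logarithm shrinks a difference. With a pseudocount of 0.1 FPKM, its deposited log2 difference was −2.24 in Tnfr2-/- and −2.39 in Tnfr1-/-. That pseudocount was not combined with scaling. Mapk8ip3 (JIP3), which links JNK to axonal and vesicle transport, had means of 15.0 ± 2.2 in WT, 9.86 ± 0.52 in Tnfr1-/-, and 9.16 ± 0.24 in Tnfr2-/- (SD, n = 2), and Mapkbp1, a JNK-binding protein, had 3.37 ± 0.023, 1.48 ± 0.049, and 1.74 ± 0.35. Neither was called with scaling, and 20.4% of the exon bases of Mapk8ip3 overlap other genes.

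The listed kinases of the ERK arm were lower as deposited, and none was called with scaling. Map2k1 (MEK1), which phosphorylates ERK, had 44.4 and 44.5 in WT, 29.1 and 24.5 in Tnfr1-/-, and 29.7 and 32.1 in Tnfr2-/-, and Map2k2 (MEK2) had 50.8 and 51.2 in WT, 19.7 and 18.3 in Tnfr1-/-, and 18.8 and 23.5 in Tnfr2-/-. Every knockout sample lay below both WT samples for each gene. The log2 difference of Map2k2 was −1.24 ± 0.12 SE, limma adjusted p = 0.000466 in Tnfr2-/- and −1.38 ± 0.12 SE, limma adjusted p = 0.000295 in Tnfr1-/-, and −0.28 and −0.27 with scaling, still lower (adjusted p = 0.0301 and 0.0308) but under the fold change required. For Map2k1, differences of −0.51 ± 0.10 SE and −0.71 ± 0.10 SE turned to 0.45 and 0.40 with scaling. Mapk6, which encodes ERK3, an atypical and short-lived kinase that MEK does not activate, had 30.4 and 28.6 in WT, 14.6 and 11.7 in Tnfr1-/-, and 10.3 and 13.8 in Tnfr2-/-. Its log2 difference was −1.24 ± 0.17 SE, limma adjusted p = 0.00151 in Tnfr2-/- and −1.12 ± 0.17 SE, limma adjusted p = 0.00193 in Tnfr1-/-. With scaling it came to −0.29 and −0.03, and neither call held.

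Upstream, the 3 largest rises of the 46 genes in Tnfr2-/- as deposited were those of MAP3Ks. Map3k15, which encodes ASK3, had 1.89 and 1.39 in WT, 10.9 and 11.0 in Tnfr1-/-, and 15.0 and 14.8 in Tnfr2-/-. The groups did not overlap, and the log2 difference was 2.59 ± 0.11 SE, limma adjusted p = 4.96e-05 in Tnfr2-/- and 2.18 ± 0.11 SE, limma adjusted p = 6.98e-05 in Tnfr1-/-, or 3.26 and 2.98 with scaling. The gene lies on the X chromosome, and 13.9% of its exon bases overlap another gene, Pdha1 on the opposite strand among them, so reads of the 2 could not be told apart without strand. Map3k3, which encodes MEKK3, a kinase of the TNF and Toll-like receptor pathways, had 7.89 and 7.57 in WT, 44.1 and 52.6 in Tnfr1-/-, and 53.3 and 42.7 in Tnfr2-/-. It was the highest MAP3K in all 4 knockout samples, at a log2 difference of 2.48 ± 0.14 SE, limma adjusted p = 0.0001 in Tnfr2-/- and 2.49 ± 0.14 SE, limma adjusted p = 8.64e-05 in Tnfr1-/-. Map3k9, which encodes the mixed-lineage kinase MLK1, had 0.367 and 0.490 in WT, 10.5 and 8.33 in Tnfr1-/-, and 7.77 and 4.02 in Tnfr2-/-. All 4 knockout samples exceeded WT, with the widest ratio between the 2 Tnfr2-/- samples of the 10 MAP3Ks, and the log2 difference was 2.22 ± 0.29 SE, limma adjusted p = 0.00127 and 2.86 ± 0.29 SE, limma adjusted p = 0.000479.

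Of the other MAP3Ks, Map3k5 (ASK1), a redox-sensitive activator of JNK and p38 downstream of TNF, rose to 17.6 ± 4.4 in Tnfr2-/- and 16.2 ± 1.1 in Tnfr1-/- from 6.70 ± 0.054 FPKM in WT (SD, n = 2; log2 1.25 ± 0.17 SE, limma adjusted p = 0.00163, and 1.15 ± 0.17 SE, limma adjusted p = 0.00195). Map3k1 (MEKK1) rose to 12.1 ± 0.41 and 12.3 ± 0.66 from 7.25 ± 0.097 (log2 0.66 ± 0.08 SE, limma adjusted p = 0.000906, and 0.69 ± 0.08 SE, limma adjusted p = 0.000696). Map3k2 (MEKK2) rose in Tnfr1-/- (log2 0.68 ± 0.11 SE, limma adjusted p = 0.00249) and in Tnfr2-/- missed the fold change required (log2 0.57 ± 0.11 SE, limma adjusted p = 0.00512). These 3 genes and Map3k3 belong to the MEKK and ASK kinases. Lower as deposited were Map3k10 (MLK2) with 3.72 ± 0.13 FPKM in WT, 1.34 ± 0.078 in Tnfr1-/-, and 1.36 ± 0.16 in Tnfr2-/-, and Map3k12 (DLK) with 0.975 ± 0.062, 0.346 ± 0.08, and 0.297 ± 0.022. Neither was called with scaling, and 14.8% and 19.3% of their exon bases overlap other genes. Map3k4 (MEKK4) had 3.98 ± 0.008, 3.16 ± 0.18, and 3.30 ± 0.076. Map3k13 (LZK) had 0.0123 and 0.0103 in WT, 0.0304 and 0.0331 in Tnfr1-/-, and 0.0175 and 0.0229 in Tnfr2-/- and was not called, with the knockout samples above the WT samples. In all, 5 of 10 MAP3Ks rose in Tnfr2-/- and 6 of 10 in Tnfr1-/-, and none fell, under both scalings. The background was 13.6% higher and 21% lower in Tnfr2-/-, and 14.1% and 22.2% in Tnfr1-/-.

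The 2 MAP4Ks moved in opposite directions. Map4k2, a kinase upstream of JNK, had 18.8 and 16.2 in WT, 64.0 and 57.5 in Tnfr1-/-, and 56.5 and 43.9 in Tnfr2-/-, at a log2 difference of 1.46 ± 0.15 SE, limma adjusted p = 0.00061 in Tnfr2-/- and 1.74 ± 0.15 SE, limma adjusted p = 0.000306 in Tnfr1-/-. Map4k3 (GLK), which acts in JNK and mTOR signalling, had 10.6 and 10.4 in WT, 1.79 and 1.66 in Tnfr1-/-, and 1.53 and 2.09 in Tnfr2-/-, at −2.04 ± 0.12 SE, limma adjusted p = 0.000113 and −2.08 ± 0.12 SE, limma adjusted p = 9.4e-05. Their ratio was 1.78 and 1.55 in WT, 35.8 and 34.7 in Tnfr1-/-, and 37.0 and 21.0 in Tnfr2-/-. Both calls held in both knockouts under both scalings, with −1.22 and −1.16 for Map4k3 with scaling.

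Among the scaffolds and MAP kinase-activated kinases, Mapk1ip1 alone passed under both scalings, and in Tnfr1-/- alone. It had 5.48 and 4.64 in WT, 9.31 and 9.30 in Tnfr1-/-, and 7.71 and 7.55 in Tnfr2-/-, a log2 difference of 0.77 ± 0.10 SE, limma adjusted p = 0.00108 in Tnfr1-/- and 0.51 ± 0.10 SE, limma adjusted p = 0.00496 in Tnfr2-/-. The kinases that p38 activates were lower as deposited. Mapkapk3 (MK3), which acts on mRNA stability with its relative MK2, had 44.5 and 42.2 in WT, 17.7 and 12.5 in Tnfr1-/-, and 18.1 and 12.4 in Tnfr2-/-, and its log2 difference of −1.47 ± 0.23 SE, limma adjusted p = 0.00239 and −1.48 ± 0.23 SE, limma adjusted p = 0.0021 was −0.51 and −0.39 with scaling, where neither was called. The remaining 3, Mapkapk5 (MK5), Mapkap1 (SIN1, a subunit of mTORC2), and Mapk1ip1l, had mean FPKM values of 11.6 to 19.4 in WT, 6.92 to 11.8 in Tnfr1-/-, and 7.41 to 12.8 in Tnfr2-/-. All 3 were lower in the knockouts as deposited and had a difference above 0 with scaling. For Mapkapk5, 56.5% of the exon bases overlap other genes, so its value is uncertain.

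Of the 4 listed MAP kinase phosphatases, 3 rose in both knockouts (background 13.6% in Tnfr2-/- and 14.1% in Tnfr1-/-). Dusp6 (MKP-3), a cytoplasmic phosphatase specific for ERK whose gene ERK signalling induces, had 22.8 and 24.2 in WT, 42.5 and 55.8 in Tnfr1-/-, and 91.1 and 88.1 in Tnfr2-/-. The order was WT, Tnfr1-/-, and Tnfr2-/-, with no overlap between any 2 groups. Its log2 difference from WT was 1.89 ± 0.14 SE, limma adjusted p = 0.000215 in Tnfr2-/- and 1.02 ± 0.14 SE, limma adjusted p = 0.00136 in Tnfr1-/-, and 2.84 and 2.12 with scaling. Dusp2 (PAC-1), a nuclear phosphatase of activated leukocytes, had 7.63 and 9.04 in WT, 30.5 and 40.1 in Tnfr1-/-, and 32.0 and 35.0 in Tnfr2-/-. The samples of the 2 knockouts overlapped, and the log2 difference was 1.89 ± 0.16 SE, limma adjusted p = 0.000311 in Tnfr2-/- and 1.95 ± 0.16 SE, limma adjusted p = 0.000247 in Tnfr1-/-. Dusp10 (MKP-5), which acts on JNK and p38, had 0.479 and 0.636 in WT, 3.51 and 2.98 in Tnfr1-/-, and 1.84 and 2.43 in Tnfr2-/-. The groups did not overlap, WT being the lowest and Tnfr1-/- the highest, and the log2 difference was 1.00 ± 0.13 SE, limma adjusted p = 0.00112 in Tnfr2-/- and 1.45 ± 0.13 SE, limma adjusted p = 0.000304 in Tnfr1-/-. Dusp9 (MKP-4), in contrast, had 1.43 and 1.61 in WT, 0.591 and 0.144 in Tnfr1-/-, and 0.0850 and 0.218 in Tnfr2-/-. It fell in Tnfr2-/- under both scalings (log2 −1.13 ± 0.17 SE, limma adjusted p = 0.00194, and −0.71 with scaling). With quantile normalization this call was lost (log2 −0.57, under the fold change required, limma adjusted p = 0.05001). In Tnfr1-/-, Dusp9 was called as deposited (log2 −0.90 ± 0.17 SE, limma adjusted p = 0.00398) but not with scaling.

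Of the 10 atypical phosphatases, 3 fell in Tnfr2-/- under both scalings (background 21%) and none rose, and in Tnfr1-/-, 4 fell (background 22.2%) and 1, Dusp11, rose. Dusp23, a small phosphatase with a catalytic domain and little else, had 9.81 and 9.44 in WT, 0.602 and 0.425 in Tnfr1-/-, and 0.777 and 0.445 in Tnfr2-/-. The fall was the largest of the 46 genes on this scale, at a log2 difference of −2.73 ± 0.12 SE, limma adjusted p = 5.44e-05 in Tnfr2-/- and −2.81 ± 0.12 SE, limma adjusted p = 4.38e-05 in Tnfr1-/-, or −1.98 and −2.03 with scaling. Dusp19, which binds components of the JNK cascade, had 4.64 and 4.61 in WT, 1.00 and 1.17 in Tnfr1-/-, and 1.08 and 0.777 in Tnfr2-/-, at −1.55 ± 0.10 SE, limma adjusted p = 0.000134 and −1.43 ± 0.10 SE, limma adjusted p = 0.000148. Dusp13 had 1.57 and 1.39 FPKM in WT and was listed at 0 in all 4 knockout samples, so no fold is given. It was called lower in both comparisons under both scalings, and 10.2% of its exon bases overlap other genes.

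Dusp3 (VHR), which acts on ERK and JNK, was described after its values were seen. It had 28.2 and 29.3 in WT, 5.50 and 5.85 in Tnfr1-/-, and 8.59 and 10.6 in Tnfr2-/-. It fell in Tnfr1-/- (log2 −2.16 ± 0.11 SE, limma adjusted p = 7.12e-05; −1.10 with scaling), and in Tnfr2-/- it was called as deposited (log2 −1.49 ± 0.11 SE, limma adjusted p = 0.000236) but, at −0.56, missed the fold change with scaling. The ratio of Dusp6 to Dusp3 was 0.807 and 0.824 in WT, 7.72 and 9.55 in Tnfr1-/-, and 10.6 and 8.29 in Tnfr2-/-. Dusp11 (PIR1), which dephosphorylates RNA rather than MAP kinases, had 18.6 and 17.5 in WT, 28.1 and 27.0 in Tnfr1-/-, and 26.4 and 24.1 in Tnfr2-/-, at a log2 difference of 0.59 ± 0.08 SE, limma adjusted p = 0.00122 in Tnfr1-/- and 0.46 ± 0.08 SE, limma adjusted p = 0.00306 in Tnfr2-/-, the latter under the fold change required. The Tnfr1-/- call of Dusp11 lay close to that fold change and was lost without WT sample 2 (log2 0.55) or Tnfr1-/- sample 1 (log2 0.56). Dusp12, Dusp18, and Dusp28 had mean FPKM values of 1.44 to 8.37 in WT, 0.886 to 4.10 in Tnfr1-/-, and 0.721 to 3.93 in Tnfr2-/-, and none of them was called with scaling. The value of Dusp12 is uncertain, since 49.8% of its exon bases overlap other genes. Dusp15 had 0.0170 FPKM in both WT samples and was listed at 0 in all knockout samples.

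Between the knockouts, Tnfr2-/- against Tnfr1-/-, none of the 46 genes was called by limma as deposited (background 1.45%). Of the 46, 7 had an unadjusted p under 0.05, a smaller share than the 1962 of all 8191 listed genes. With median-ratio scaling 3 were called (background 2.59%), Dusp22 higher in Tnfr2-/- and Mapk12 and Dusp10 lower. Quantile normalization also gave 3, Dusp6 and Dusp22 higher and Mapk12 lower. On leaving out 1 sample at a time, the log2 difference was 0.60 to 0.95 for Dusp22 and 0.52 to 0.80 for Dusp3. It was −1.71 to −0.94 for Mapk12. 17 of the 46 genes did not overlap between the knockouts, 7 higher and 10 lower in Tnfr2-/-, against 51.0% of all listed genes. The genes with the smallest p were phosphatases. Dusp6 was higher in Tnfr2-/- (log2 0.87 ± 0.14 SE, limma adjusted p = 0.0526; 95% interval 0.50 to 1.23), and so was Dusp3 (log2 0.66 ± 0.11 SE, limma adjusted p = 0.0578). Dusp22 (JKAP), a phosphatase that restrains T cell receptor signalling, had 16.5 and 15.4 in WT, 6.66 and 6.96 in Tnfr1-/-, and 10.8 and 14.1 in Tnfr2-/-. Its level in the Tnfr2-/- samples lay between those of the other 2 groups (log2 0.77 ± 0.13 SE, limma adjusted p = 0.0582). The adjusted p of these 3 thus lay just above the threshold, and they were named here after their values were seen.

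Lower in Tnfr2-/- were Mapk12 (log2 −1.32 ± 0.26 SE, limma adjusted p = 0.0705), Mapk11 (−0.96 ± 0.40 SE, limma adjusted p = 0.229), and Dusp10 (−0.44 ± 0.13 SE, limma adjusted p = 0.127). Map3k15 was higher (0.41 ± 0.11 SE, limma adjusted p = 0.124) and Mapk1ip1 lower (−0.26 ± 0.10 SE, limma adjusted p = 0.207), neither of them called under any scaling. For JNK1, the difference between the knockouts was 0.20 ± 0.08 SE, limma adjusted p = 0.217, with a 95% interval of −0.00 to 0.40. For JNK2 the interval was −0.27 to 0.40, and for p38 alpha it was −0.15 to 0.47. With 2 samples per group, differences within these bounds could not be resolved. The intervals share 1 spread per gene among the 3 groups, WT included. Over all listed genes, the root mean square SD on the log2 scale was 0.0789 in WT, 0.139 in Tnfr1-/-, and 0.219 in Tnfr2-/-. The bounds may therefore be too narrow for a comparison of the knockouts. Markers of other cells also differed between the knockouts. The 4 listed of 7 B cell markers (Cd79a, Cd79b, Pax5, and Ebf1) summed to 40.6 and 40.6 in WT, 341 and 285 in Tnfr1-/-, and 152 and 272 in Tnfr2-/-. Among the 4 knockout samples, the order of this sum, highest in Tnfr1-/- sample 1 and lowest in Tnfr2-/- sample 1, was also that of Mapk11, Mapk12, and Dusp10. How many other genes share this order was not counted, so the match is not set apart from a background. The part of B cells in these differences was not tested. The 3 listed of 10 T and NK cell markers (Cd3d, Cd3g, and Cd4) summed to 32.7 and 36.4 in WT, 37.6 and 43.0 in Tnfr1-/-, and 22.9 and 20.1 in Tnfr2-/-. These sums hide opposite differences. Cd4 had 24.2 and 25.7 in WT and 4.89 and 4.27 in Tnfr1-/-. By contrast, Cd3d had 3.21 and 3.39 in WT and 16.4 and 15.2 in Tnfr1-/-. Cd3g had 5.27 and 7.38 in WT and 16.3 and 23.5 in Tnfr1-/-. The sum, Cd3d, and Cd3g were lower in Tnfr2-/- than in Tnfr1-/- without overlap, and Cd4 overlapped. The macrophage and dendritic cell sum, given above, overlapped between the knockouts. Among its 14 genes, Cd68 had 682 and 701 in WT, 44.4 and 50.2 in Tnfr1-/-, and 86.6 and 101 in Tnfr2-/-, Adgre1 had 95.9 and 109 in WT, 12.2 and 13.4 in Tnfr1-/-, and 20.6 and 20.4 in Tnfr2-/-, and Csf1r had 225 and 237 in WT, 71.3 and 92.6 in Tnfr1-/-, and 137 and 171 in Tnfr2-/-. These 3 were higher in both Tnfr2-/- samples than in both Tnfr1-/- samples, as Dusp6, Dusp3, and Dusp22 were. C1qb, Itgax, Flt3, and Zbtb46 of the same list were also higher in this way. C1qc was lower, with 29.4 and 32.9 in Tnfr1-/- and 29.2 and 23.6 in Tnfr2-/-. C1qa, Mertk, Vcam1, Spic, H2-Ab1, and Cd74 overlapped between the knockouts. The part of these cells in the differences of the phosphatases was not tested.

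**Figure D4:**
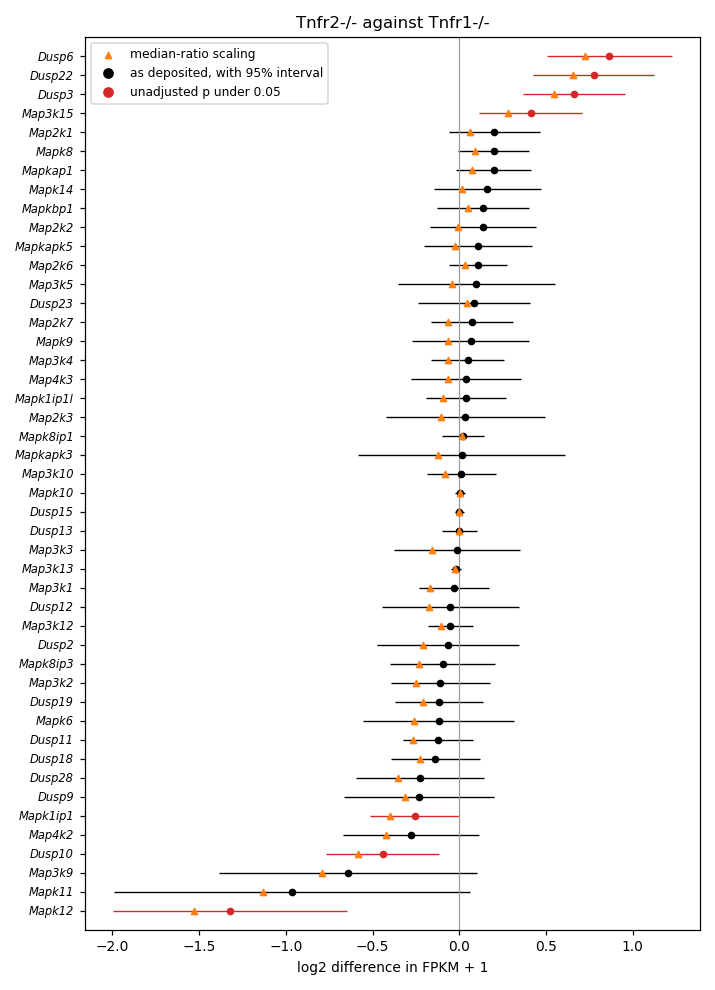
Log2 difference in FPKM + 1 of each gene in Tnfr2-/- against Tnfr1-/-, as deposited with its 95% interval from limma (circles, red where the unadjusted p is under 0.05) and with median-ratio scaling (triangles). Dusp6, Dusp22, and Dusp3 lie furthest to the right and Mapk12 and Mapk11 furthest to the left, the latter with the widest interval.

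**Figure D5:**
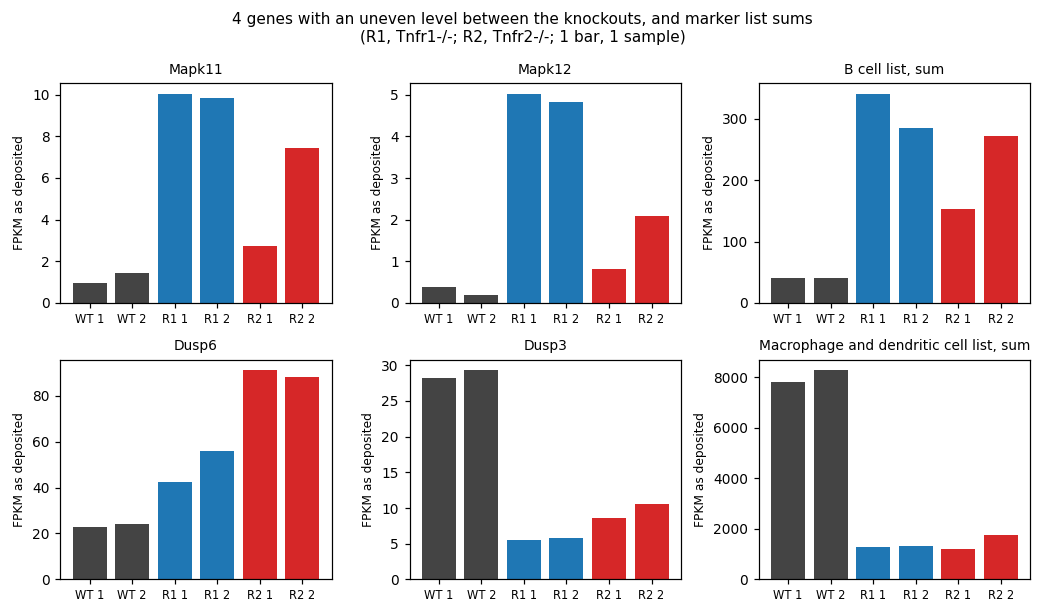
FPKM as deposited in each sample (1 bar each) of Mapk11, Mapk12, Dusp6, and Dusp3, and the summed FPKM of the listed B cell markers and of the macrophage and dendritic cell markers. The B cell sum is 152 in Tnfr2-/- sample 1 and 272 in sample 2, and Mapk11 and Mapk12 are also lower in sample 1.

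Other genes of these pathways were counted by lists under both scalings, as rises and falls in Tnfr2-/- against WT, where 13.6% of all listed genes rose and 21% fell. Of the Ras-level genes that feed the ERK arm, 17 of 25 were listed, and 4 rose and 1 fell (median log2 −0.50, or 0.39 with scaling). They included the Ras activators Rasgrp2 (log2 2.34 ± 0.10 SE, limma adjusted p = 4.48e-05) and Rasgrp4 (2.27 ± 0.22 SE, limma adjusted p = 0.000479), which rose. Hras fell (−1.72 ± 0.09 SE, limma adjusted p = 8.35e-05), and Rras fell in Tnfr1-/- (−2.24 ± 0.17 SE, limma adjusted p = 0.000191). Spred1, an inhibitor of Ras signalling, had 9.79 and 8.63 in WT, 2.00 and 1.93 in Tnfr1-/-, and 3.98 and 4.09 in Tnfr2-/- and was the only gene of these lists called between the knockouts as deposited, higher in Tnfr2-/- (log2 0.76 ± 0.10 SE, limma adjusted p = 0.0384). That call was lost on leaving out any of the samples but Tnfr2-/- sample 1 (adjusted p between 0.0817 and 0.155), and also with only the 2 groups (0.160), without trend (0.0514), and with adjustment as for 25000 genes (0.117). Rras, with 41.5 and 40.6 in WT, 7.43 and 8.43 in Tnfr1-/-, and 13.5 and 18.9 in Tnfr2-/-, was called higher in Tnfr2-/- than in Tnfr1-/- with median-ratio scaling (log2 0.81) and with quantiles (0.84), but not as deposited (0.93 ± 0.17 SE, limma adjusted p = 0.0622). Among the MAP3Ks and MAP4Ks with other symbols, 7 of 14 were listed, and Taok1 (log2 0.78 ± 0.11 SE, limma adjusted p = 0.00187) and Stk4, which encodes the Hippo kinase MST1 (0.77 ± 0.11 SE, limma adjusted p = 0.00199), rose, while none fell. Of the scaffolds and adaptors, 14 of 19 were listed, and 3 rose and 1 fell. The TAK1-binding adaptor Tab2 rose (log2 1.68 ± 0.11 SE, limma adjusted p = 0.000137), as did Gadd45a (1.47 ± 0.25 SE, limma adjusted p = 0.00308), and Lamtor3, the MEK scaffold MP1, fell (−2.05 ± 0.08 SE, limma adjusted p = 3.78e-05).

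The MAP kinase target transcription factors had 14 of 29 genes listed, of which 9 rose and 1 fell in each knockout under both scalings (background 13.6% and 21% in Tnfr2-/-, 14.1% and 22.2% in Tnfr1-/-). Their median log2 difference was 1.04 in Tnfr2-/- and 0.68 in Tnfr1-/-, against −0.74 and −0.83 for all listed genes. Mef2c, a p38 substrate, had 0.165 and 0.190 in WT, 15.7 and 12.3 in Tnfr1-/-, and 13.3 and 21.4 in Tnfr2-/-, and Ets1, an ERK substrate, had 7.20 and 8.14 in WT, 71.4 and 72.5 in Tnfr1-/-, and 53.6 and 36.4 in Tnfr2-/-. Both were low in WT (log2 in Tnfr2-/- 3.93 ± 0.24 SE, limma adjusted p = 0.000128, and 2.38 ± 0.19 SE, limma adjusted p = 0.000269), and both are also expressed by B cells, whose markers were higher in the same samples; their part in these values was not tested. Egr2, an immediate early gene of macrophages among other cells, fell from 53.1 and 52.2 FPKM in WT to between 0.569 and 1.66 FPKM in the knockouts (log2 −4.95 ± 0.22 SE, limma adjusted p = 4.94e-05 in Tnfr2-/-). Of the kinases activated by ERK and p38 outside the family symbols, 2 of 8 were listed and none was called under both scalings, with 1 called lower as deposited. Of the other phosphatases of MAP kinases, 7 of 12 were listed, and Ppp5c, which acts on ASK1, fell (log2 −1.98 ± 0.12 SE, limma adjusted p = 0.000113) while none rose.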

How the data were processed

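Splenic MDSCs of aged WT, Tnfr1-/-, and Tnfr2-/- mice were sequenced by the authors as single-end reads of 50 bases in 2 independent experiments. Per the labels, FastQC, edgeR, and the mm10 build were used; the aligner and the FPKM tool are not given in the sources used here. The deposited values are FPKM per gene and sample, with the p-value of the authors' one-way analysis of variance beside them. This p-value column was not used; recomputed, it was under 0.05 for all 8191 genes, the limit for entering the table. Depth is unknown without counts, so no counting interval is given.

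Groups were taken from the sample labels, and no 2 samples held the same values. FPKM + 1 was log2-transformed, and all 8191 genes were fitted with limma 3.58.1 (R 4.3.3; 1 model of 6 samples, trended eBayes, two-sided, Benjamini-Hochberg over all genes). A call needed an adjusted p under 0.05 and a fold change over 1.5, the thresholds in the study's methods. The fit was tested on simulated data. An exact test of 2 against 2 samples cannot go below p = 0.333, so none is given. The p-values set a difference against the spread between these samples. However, the 8191 genes had entered the table by an analysis of variance of the same 6 samples. The fitted spread and the adjustment therefore rest on genes already picked for a difference, and the p-values tend to be too small. By how much was not tested. The 46 genes, the pathway and marker lists, and the tests were chosen with earlier results of these data known. Values in every sample are given by a rule: for all MAP kinases and MAP2Ks, and, per other class, for up to 3 rises and 3 falls in Tnfr2-/- called under both scalings. Genes of other lists are named for the 2 largest changes each way. Mapk1ip1, Mapk8ip1, Mapkapk3, Dusp3, Dusp11, and Dusp22 were given in every sample after their values were seen. 1 gene of the marker lists is not reported here and was left out of its list. Positions and exon overlaps are from GENCODE M21 on GRCm38, and promoters from RefSeq. Python 3.11.15, pandas 2.3.3, and matplotlib 3.10.9 served the other steps. Alternatives were a pseudocount of 0.1, a mean of at least 1 FPKM, median-ratio and quantile scaling, 2 groups per model, a replicate block, no trend, no fold change threshold, adjustment as for 25000 genes, and leaving out each sample.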

Additional observations from a re-analysis of the deposited data

How the results depend on the processing

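Against WT, scaling moved the counts more than any other choice tried. With median-ratio and quantile scaling, the genes called fell from 6124 to 3731 and 3827 of 8191 in Tnfr1-/- against WT and from 5794 to 3515 and 3566 in Tnfr2-/- against WT, and the members of the MAP kinase and phosphatase families called lower fell from 21 to 5 and 5 and from 19 to 5 and 5. Of the 32 Tnfr2-/- calls, 18 remained under each scaling, and of the 37 Tnfr1-/- calls, 21 did. Median-ratio and quantile scaling turned Map2k1 (Tnfr1-/- 0.40 and 0.27; Tnfr2-/- 0.45 and 0.30 log2), Map2k7 (0.63 and 0.43; 0.56 and 0.38), and Map2k3 (0.14 and 0.0039; in Tnfr2-/- 0.028 with median ratios only) above 0.

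Between the knockouts, 119 genes were called, and 217 with a mean of at least 1 FPKM, 212 with median ratios, 244 with quantiles, 218 with no fold change threshold, 15 without trend, 8 adjusted as for 25000 genes, and 0 with only the 2 groups in limma (1436 at an unadjusted p under 0.05). Leaving out each sample gave between 2 and 662, the latter without Tnfr2-/- replicate 1. Members called higher numbered 3 with a mean of at least 1 FPKM, 1 with median ratios, and 2 with quantiles, and those called lower 1, 2, and 1, against 0 and 0; leaving out a sample gave 0 to 2 for each. Against WT, leaving out a sample gave 11 to 13 higher and 17 to 21 lower in Tnfr2-/- and 15 to 16 and 20 to 23 in Tnfr1-/-. For Mapk11 and Mapk12 in Tnfr2-/-, adjustment as for 25000 genes left an adjusted p of 0.0663 and 0.0684. The cause of these changes was not tested.

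Replicate numbers shared between groups did not pair the samples: deviations from group means correlated at 0.0217, 0.0299, and 0.0462 across genes. The replicate block gave 7 calls between the knockouts, and no member there; Spred1 lost its call (adjusted p = 0.0789). Without counts, depth cannot be weighed, and precision rests on 2 samples per group.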
